A study of Mus musculus with 24 samples.

Results

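The 9 genes described here encode the enzymes that place, copy and remove DNA methylation and their closest partners: Dnmt1, Dnmt3a, Dnmt3b, Dnmt3l, Uhrf1, Tet1, Tet2, Tet3 and Tdg. They were taken by name from the GENCODE vM21 annotation of 21938 protein-coding genes. Each locus was the gene body with 20 kb either side, and each start region was the span within 1 kb of annotated transcription starts. The assay was ATAC-seq, which marks open chromatin through cuts by the Tn5 transposase. There were 24 libraries, 12 groups of 2, each with a peak list of its own. The cells were E14, a line of mouse embryonic stem cells, and carried CTCF tagged with an auxin-inducible degron (AID), through which the auxin IAA leads to degradation of the protein. Over all lists, 233706 windows of 501 bp around peak summits were kept, and 243 of them lay in the 9 loci. These windows are called sites below, and the sites of a locus are numbered along the chromosome.

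The labels give 4 sets of libraries. In the CTCF lines, a control line was grown without IAA (oectrl) or with 12 h of IAA (oectrl_IAA), and lines overexpressing wild-type CTCF (oeCTCFwt_IAA) or mutated CTCF (oeCTCFmut_IAA) were grown with 12 h of IAA. In the Chd4 set and the Chd8 set, cells with the hairpin shluci were set beside cells with shRNA1 or shRNA2 against the chromatin remodeller gene Chd4 or Chd8, all without IAA. In the serum set, cells labelled as grown in serum were taken at 0 h and at 12 h of IAA. The growth protocol describes a serum-free medium with leukemia inhibitory factor, PD0325901 and CHIR99021, inhibitors of MEK and GSK3, and is given for all 24 libraries; the 4 serum libraries were assigned by their treatment label. The labels do not say which residues of CTCF were mutated, whether a line is 1 clone, or whether replicates were separate cultures, so p-values measure only the spread between these libraries.

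Methyl groups on cytosine in CpG dinucleotides are kept through cell division by DNMT1, which UHRF1 directs to newly copied DNA. DNMT3A and DNMT3B add methylation to unmethylated DNA, helped in germ cells and embryonic stem cells by DNMT3L, which has no catalytic activity of its own. TET1, TET2 and TET3 oxidise the methyl group, and TDG removes the oxidised bases so that repair restores cytosine. Embryonic stem cells are known to carry less DNA methylation in medium with MEK and GSK3 inhibitors than in serum.

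Deposited lists were shortest in the serum set, at 59786 to 82502 peaks. The Chd8 set had 135410 to 166697, the Chd4 set 80619 to 141742 and the CTCF lines 120137 to 155087. For comparisons between sets, every list was reduced by the authors' p-value to the 59786 peaks of the shortest one, and this is called the equal-length list. In equal-length lists the serum set had a median peak length of 381 to 508 bp and the CTCF lines one of 501 to 687 bp. Both Chd sets had shorter peaks, at 126 to 248 bp (Chd8) and 114 to 170 bp (Chd4). The weakest peak kept had a −log10 p of 3.31 to 6.54 in serum and 14.6 to 21.1 in the CTCF lines, 7.29 to 8.05 in the Chd8 and 5.56 to 6.44 in the Chd4 libraries. Read depth is not given in the lists. All serum libraries therefore form 1 set, and medium, set, peak length and list strength cannot be told apart. Peaks lay within 1 kb of the starts of the stem cell genes Esrrb in 24 of 24 libraries, Zfp42 in 22, Nanog and Sox2 in 21, Pou5f1 in 19 and Klf4 in 15. They lay at those of Dcn, Lum, Hbb-bs, Ptprc, Myh6, Ckm and Afp, markers of other cell types, in 0 libraries, and at those of Cd3e and Alb in 1 each. Other markers were open in many libraries, with Pax6 and Sox17 in 24, Col1a1 and Col1a2 in 23, Neurod1 in 12 and Apoa1 in 5.

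Sequences of some starts and of an intronic site are shown first, from the GRCm38 assembly, which is mm10. The comparison of media was made on called sites and peak ranks, not on sequence. Each of the first 5 lines gives the 200 bases before a start, 5′ to 3′, with CpG dinucleotides in capitals. Dnmt3l-201, Dnmt3a-205 and Tet3-203 are starts that ranked higher in serum, and Dnmt3a-201 and Dnmt1-201 are shown beside them as starts of the same gene or pathway that did not pass the test. The start Dnmt3a-213 also ranked higher and is not shown. None of these stretches holds an annotated exon.
Dnmt3l-201, chr10:78049642-78049841, plus strand: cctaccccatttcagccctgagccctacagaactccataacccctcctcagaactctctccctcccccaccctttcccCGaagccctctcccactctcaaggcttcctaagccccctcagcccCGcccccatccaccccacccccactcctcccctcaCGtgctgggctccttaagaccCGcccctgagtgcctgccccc
Dnmt3a-205, chr12:3891528-3891727, plus strand: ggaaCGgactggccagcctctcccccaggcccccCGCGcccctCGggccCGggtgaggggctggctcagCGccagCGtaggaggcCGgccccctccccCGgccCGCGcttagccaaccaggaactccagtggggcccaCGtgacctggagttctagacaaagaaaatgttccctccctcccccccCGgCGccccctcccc
Dnmt3a-201, chr12:3806830-3807029, plus strand: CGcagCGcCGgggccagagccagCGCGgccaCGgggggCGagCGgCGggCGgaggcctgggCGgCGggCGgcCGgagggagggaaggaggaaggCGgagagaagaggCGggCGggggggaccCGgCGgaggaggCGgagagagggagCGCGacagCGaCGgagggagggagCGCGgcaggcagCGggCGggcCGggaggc
Tet3-203, chr6:83456393-83456592, minus strand: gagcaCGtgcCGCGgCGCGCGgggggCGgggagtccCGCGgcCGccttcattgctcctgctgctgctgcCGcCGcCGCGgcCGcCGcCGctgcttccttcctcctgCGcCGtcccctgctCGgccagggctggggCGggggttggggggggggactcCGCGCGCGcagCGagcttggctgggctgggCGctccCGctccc
Dnmt1-201, chr9:20952980-20953179, minus strand: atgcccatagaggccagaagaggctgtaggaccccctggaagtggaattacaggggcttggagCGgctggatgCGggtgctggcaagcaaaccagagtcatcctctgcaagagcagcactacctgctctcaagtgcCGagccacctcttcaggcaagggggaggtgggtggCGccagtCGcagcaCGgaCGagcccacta
The last line gives the central 201 bases of the intronic Dnmt3a site 31, called in serum only in equal-length lists, on the plus strand.
Dnmt3a_s31, chr12:3887611-3887811, plus strand: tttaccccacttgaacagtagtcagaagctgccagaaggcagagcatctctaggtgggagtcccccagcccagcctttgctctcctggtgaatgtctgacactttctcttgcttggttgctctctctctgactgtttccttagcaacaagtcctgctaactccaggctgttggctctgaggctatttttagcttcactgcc
The Dnmt3l-201 stretch held 4 CpG, against a median of 8 before 49783 starts of protein-coding genes. The intronic Dnmt3a site 31 stretch held 0. Dnmt3a-205, the start of the short form DNMT3A2, held 14, and Dnmt1-201 held 7. Dnmt3a-201, the start of the long form, and Tet3-203 held 29 and 28, more than before 95.1% and 94.2% of those starts.

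In equal-length lists, the loci of the de novo methylation genes Dnmt3a, Dnmt3b and Dnmt3l and of Tet1 held more called sites in serum than in serum-free libraries, while those of Dnmt1, Uhrf1, Tet2, Tet3 and Tdg did not pass the test. Of the 9 genes, 4 were higher and 0 were lower, and the median difference over the 9 was 2.95 sites. Over 19927 protein-coding genes tested by the same exact permutation of 4 against 20 libraries, 11.7% were called, 10.7% higher and 1.04% lower in serum, with a median difference of 0.70 sites. Loci with more windows can differ by more sites, and the 9 loci held a median of 30 windows against 12 for all genes. How differences relate to locus size was not tested. As a percent of a locus's windows, the median difference was 13 percentage points for the 9 and 6.67 for all genes. The smallest two-sided p of this design is 9.41e-05.

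Dnmt3a had 15 and 15 called sites in serum at 0 h and 19 and 20 at 12 h of IAA, and 2 to 14 in the 20 serum-free libraries, with a median of 8. The groups did not overlap, and the means were 17.25 ± 2.63 (SD, n = 4) and 7.90 ± 3.35 (SD, n = 20), which differ by 9.35 sites (exact permutation, adjusted p = 0.0038 over all genes). Dnmt3l, the cofactor, had 8 and 5 sites at 0 h and 6 and 8 at 12 h in serum, against 0 to 4 in serum-free libraries with a median of 2. Here too no serum library overlapped the others, and the means of 6.75 ± 1.5 (SD, n = 4) and 1.85 ± 1.18 (SD, n = 20) differed with the same adjusted p (exact permutation). Dnmt3b had 10, 9, 8 and 9 sites in serum against 0 to 7, with means of 9 ± 0.816 (SD, n = 4) and 4.10 ± 2.59 (SD, n = 20; exact permutation, adjusted p = 0.0178). Tet1, a TET gene active in embryonic stem cells, had 19, 18, 20 and 22 sites against 2 to 17, with means of 19.75 ± 1.71 (SD, n = 4) and 10.9 ± 4.39 (SD, n = 20; exact permutation, adjusted p = 0.0105). All 4 serum libraries lay above the highest serum-free library for each of these 4 genes. The 20 serum-free libraries include IAA-treated, CTCF-overexpressing and hairpin libraries, which the permutation treats alike. The 4 Chd4 hairpin libraries had 0 to 1 sites at Dnmt3b, 2 to 5 at Tet1, 4 to 7 at Dnmt3a and 0 to 2 at Dnmt3l. The control line had 11 and 9 sites at Dnmt3a without IAA and 14 and 12 with it. At Dnmt3b it had 7 and 6, then 7 and 6, and at Dnmt3l 3 in each library. At Tet1 it had 13 and 14, then 17 and 14.

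Dnmt1 and Uhrf1, which keep methylation through division, did not pass the test. Dnmt1 had 11 to 14 sites in serum and 4 to 15 in serum-free libraries, with means of 12.75 and 9.80 (exact permutation, adjusted p = 0.380), and Uhrf1 had 6 to 8 and 1 to 10 (exact permutation, adjusted p = 1). Tet2 had 13 to 16 and 9 to 20, Tet3 had 6 to 9 and 1 to 16, and Tdg had 3 to 6 and 1 to 5, each with overlapping groups. Since the sets differ in peak length, the serum libraries were also set against the 8 libraries of the CTCF lines alone, whose peaks are closest in length. The same 4 genes were higher, with differences of 6.12 sites for Dnmt3a, 5.00 for Tet1, 3.88 for Dnmt3l and 2.50 for Dnmt3b (exact permutation, adjusted p = 0.0128 for each). Uhrf1 was lower by 2.12 sites and Tet2 by 3.62 (exact permutation, adjusted p = 0.0128 for both), in a comparison where 26% of all genes were called and 3367 of 5013 called genes were lower.

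These calls rest on lists of equal length. With lists at their deposited length, which were longest in serum-free libraries, 0 of the 9 genes passed, and 966 of 1047 genes called were lower in serum. Dnmt3a then had 19.25 sites in serum and 18.0 in serum-free libraries, Dnmt3b 9.5 and 7.95, Dnmt3l 7.50 and 4.45, and Tet1 21.5 and 25.7, the last in the opposite direction. With only peaks of a −log10 q of at least 10, 0 of the 9 genes and 0 of 19302 genes passed, and Dnmt3a had 2.75 sites in serum against 7.35. With counts divided by the number of windows each library called, or with windows called by summits, the count stayed at 4 genes, all higher in serum. The count was 3 of 8 genes tested in the gene body alone and 3 of 9 with 50 kb either side. Those settings called 7.82% and 12.3% of all genes. With equal-length lists at 50% of the shortest it was 2 genes, Dnmt3b and Dnmt3l, where 8.16% of 19262 genes were called. With group means as units, 2 against 10, it was 0 of the 9 and 0 of all genes. The smallest exact two-sided p there is 0.0152. After adjustment a gene could pass only if a large share of all genes reached it, so this setting cannot decide. Dnmt3b did not pass without serum 0 h replicate 1 (exact permutation, adjusted p = 0.0693), nor Tet1 without serum 12 h replicate 2 (exact permutation, adjusted p = 0.0529).

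**Figure D1:**
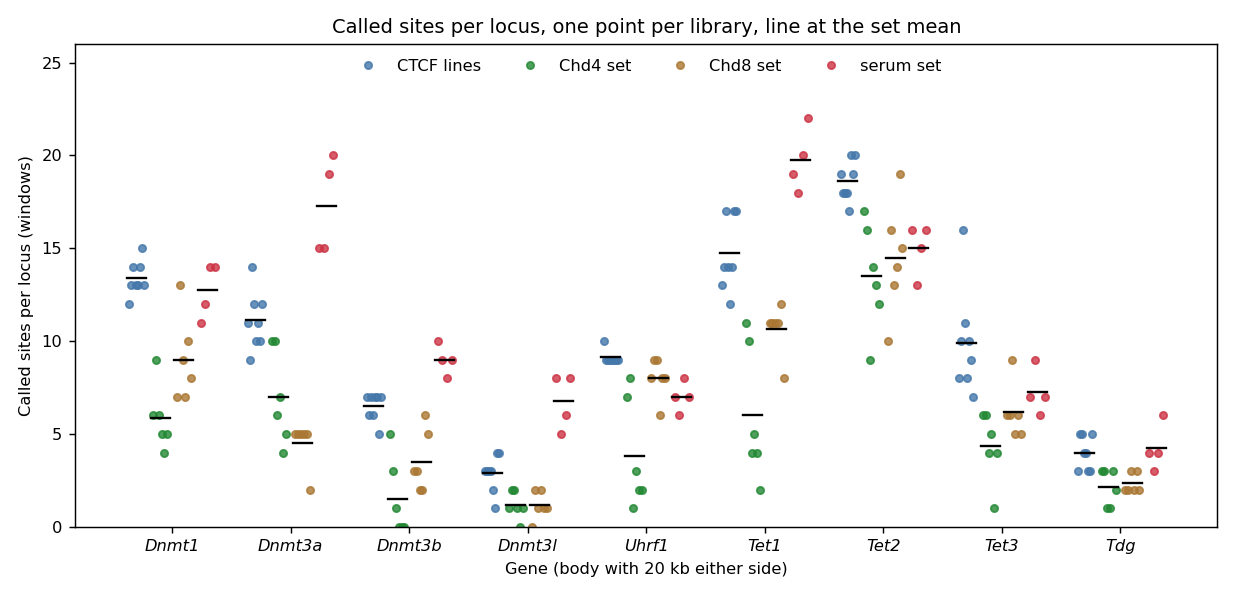
Called sites (windows) per locus in equal-length lists, on the vertical axis, for the 9 genes, with 1 point per library, colours for the 4 sets and a line at each set's mean. The 4 serum libraries lie above all others for Dnmt3a, Dnmt3b, Dnmt3l and Tet1, and below all 8 CTCF lines for Uhrf1 and Tet2.

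At the starts, the comparison was made on the rank of the best peak within 1 kb, given as its percentile in the equal-length list, where 100 is the strongest peak and 0 means no peak. Taking each gene's best start, 1 of the 9 genes differed, and 8.77% of 15978 genes did, 8.11% higher and 0.663% lower in serum. This was Dnmt3l, at 49.6 and 63.8 in serum at 0 h and 40.6 and 54.3 at 12 h, against 0 in 17 of the 20 serum-free libraries. The 3 others were both mutated CTCF libraries, at 48.5 and 34.8, and shRNA1 replicate 1 of the Chd4 set, at 35.5. The means were 52.1 ± 9.64 (SD, n = 4) in serum and 5.94 in serum-free libraries (exact permutation, adjusted p = 0.0060). This call was lost with lists at their deposited length (adjusted p = 0.178), with lists at 50% of the shortest (0.123) and with a −log10 q of at least 10, where the difference was −2.93 (all by exact permutation).

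Genes with several starts were then resolved by start region, a unit chosen after the values of the genes had been seen. In this comparison 9.7% of 18665 start regions were called. The Dnmt3l serum peak lay at the region of the transcripts Dnmt3l-201 and Dnmt3l-208, at chr10:78049842-78049959, in 4 of 4 serum and 0 of 20 serum-free libraries (exact permutation, p = 9.41e-05, the smallest possible, adjusted p = 0.0034). Its sequence is the first shown above. At full list length a peak was present there in 8 of the 20 serum-free libraries, 5 of them CTCF lines, so the region was not closed in serum-free medium. The peaks of the mutated CTCF line lay instead at Dnmt3l-205, farther upstream, and the Chd4 peak at Dnmt3l-202.

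Dnmt3a has starts that lead to a long and a short protein, and the difference between its starts was not tested. The region of Dnmt3a-203 and Dnmt3a-205, the start of the short form that predominates in embryonic stem cells, stood at 2.46, 15.7, 58.9 and 38.5 in serum. It had a peak in 3 of 20 serum-free libraries, at 9.04 and 3.19 in the control line with IAA and at 41.6 in 1 Chd4 shluci library. The means were 28.9 and 2.69 (exact permutation, adjusted p = 0.0446), with all 8 CTCF lines holding a peak there at full list length. An internal start, Dnmt3a-213, had a peak in 3 of 4 serum and 0 of 20 serum-free libraries (exact permutation, adjusted p = 0.0265). The start of the long form, Dnmt3a-201, was at 35.3 to 58.0 in serum and 0 to 71.3 in serum-free libraries, of which 11 had a peak, all 8 CTCF lines among them. Its means of 44.2 and 22.0 did not pass the test (exact permutation, adjusted p = 0.324).

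Of the other genes, 1 start region differed. Tet3-203, an upstream start of the gene for the TET enzyme of the zygote, stood at 40.0, 49.8, 31.7 and 52.8 in serum and at 0 to 34.9 in serum-free libraries, 10 of which had a peak, so that 1 serum library lay within the serum-free range. The means of 43.6 and 7.76 differed (exact permutation, adjusted p = 0.0054). The internal Tet3-202 start was open in 23 of 24 libraries, at means of 83.4 and 83.8. Dnmt3b had 1 start region, with a peak in all 4 serum libraries and all 8 CTCF lines, at 30.5 to 55.0 in serum and 32.1 to 63.7 in the lines, and in 4 of the 12 libraries of the Chd sets. Dnmt1, Uhrf1, Tet2 and Tdg had a peak at their start region in 22, 21, 22 and 19 of 24 libraries, and the Tet1 starts Tet1-207 and Tet1-209 in 23 and 20; none of these passed the test. Against the CTCF lines alone, the best start of Tdg was higher in serum (76.5 and 58.1, adjusted p = 0.0159) and those of Tet2 (89.9 and 96.1, adjusted p = 0.0355) and Tet3 (83.4 and 93.4, adjusted p = 0.0097) were lower, by exact permutation. In that comparison 4 of the 9 genes were called, near the 38.9% of 15456 genes.

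**Figure D2:**
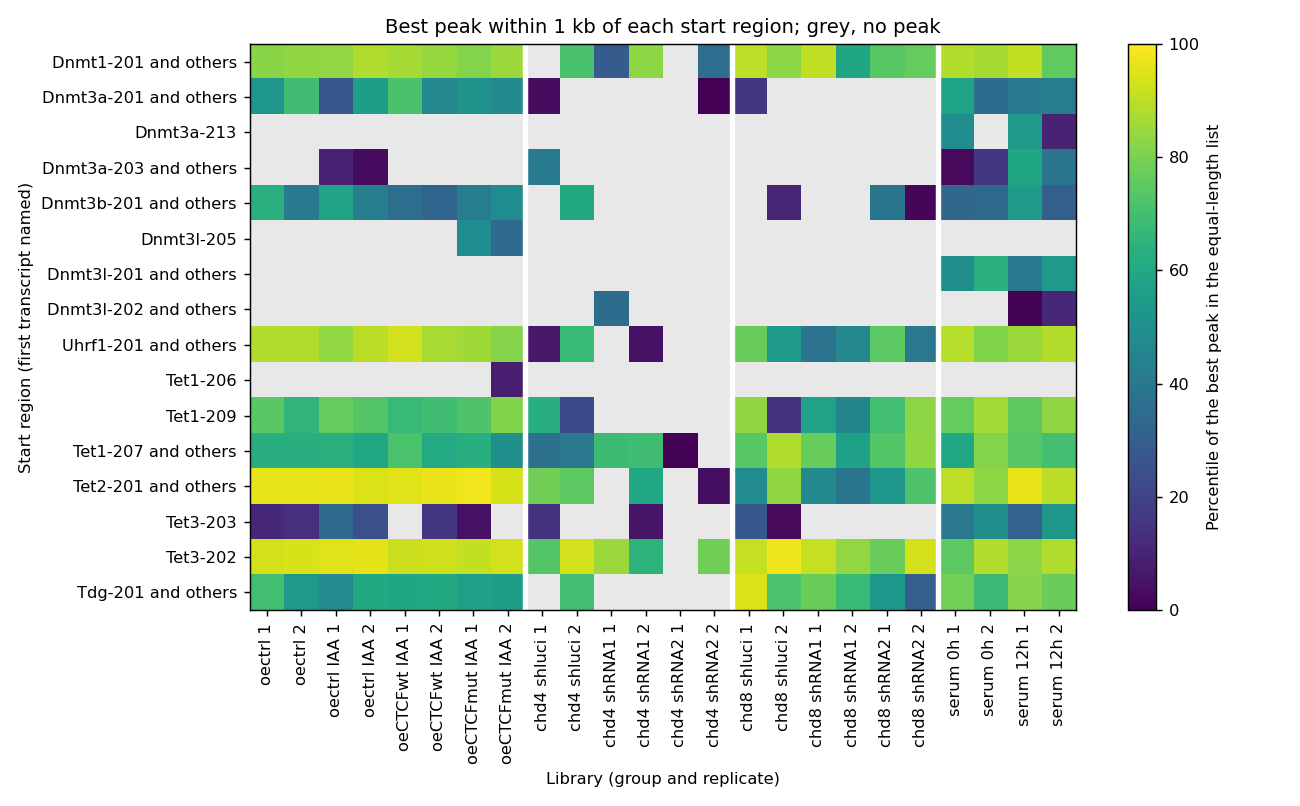
Percentile of the best peak within 1 kb of each start region (rows, named by a transcript) in the equal-length list of each library (columns), with grey for no peak and white lines between sets. Dnmt3l-201 has a peak in the 4 serum libraries only, at 40.6 to 63.8, while Tet3-202 has one in 23 of 24 libraries.

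At single sites, the count of sites called in 1 medium only lay at the share of all windows. Of the 243 sites, 2 were called by all 4 serum and none of the 20 serum-free libraries, and 0 by all serum-free and no serum library, against 0.709% and 0.0924% of all windows. Together this is 0.823% of the sites and 0.801% of all windows. One was Dnmt3l site 7, at chr10:78049692-78050192 in an intron of Dnmt3l and spanning the Dnmt3l-201 region, its centre 17 bp from the nearest start, at percentiles 39.8, 63.8, 40.6 and 54.3. The other was Dnmt3a site 31, at chr12:3887461-3887961 in an intron and 2262 bp from the nearest Dnmt3a start, at 20.5, 63.8, 62.8 and 53.8. At full list length these sites were called by 5 and 3 serum-free libraries, and the count of such sites over the 9 loci was then 0. Without serum 0 h replicate 2, which loosens the rule for every window, the count was 7, or 2.88% against 1.13% of all windows.

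A looser description, called by at least 3 of 4 serum and at most 2 of 20 serum-free libraries, took in 4 sites of Dnmt3a, 3 of Dnmt3b, 2 of Dnmt3l, 3 of Tet1 and 1 of Tet2, 13 in all or 5.35% of the 243 sites, against 3.13% of all windows. For Dnmt3b these were site 4, at chr2:153642137-153642637 and 7063 bp before the start, and the intronic sites 9 and 10. Sites called by no serum library and at least 10 serum-free libraries numbered 5, with 2 in Tet1 and 1 each in Uhrf1, Tet2 and Tet3, or 2.06% against 3.92% of all windows. The Uhrf1 site, at chr17:56321374-56321874 in an intron, was called by 16 serum-free libraries, including all 8 CTCF lines and all 6 of the Chd8 set.

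**Figure D3:**
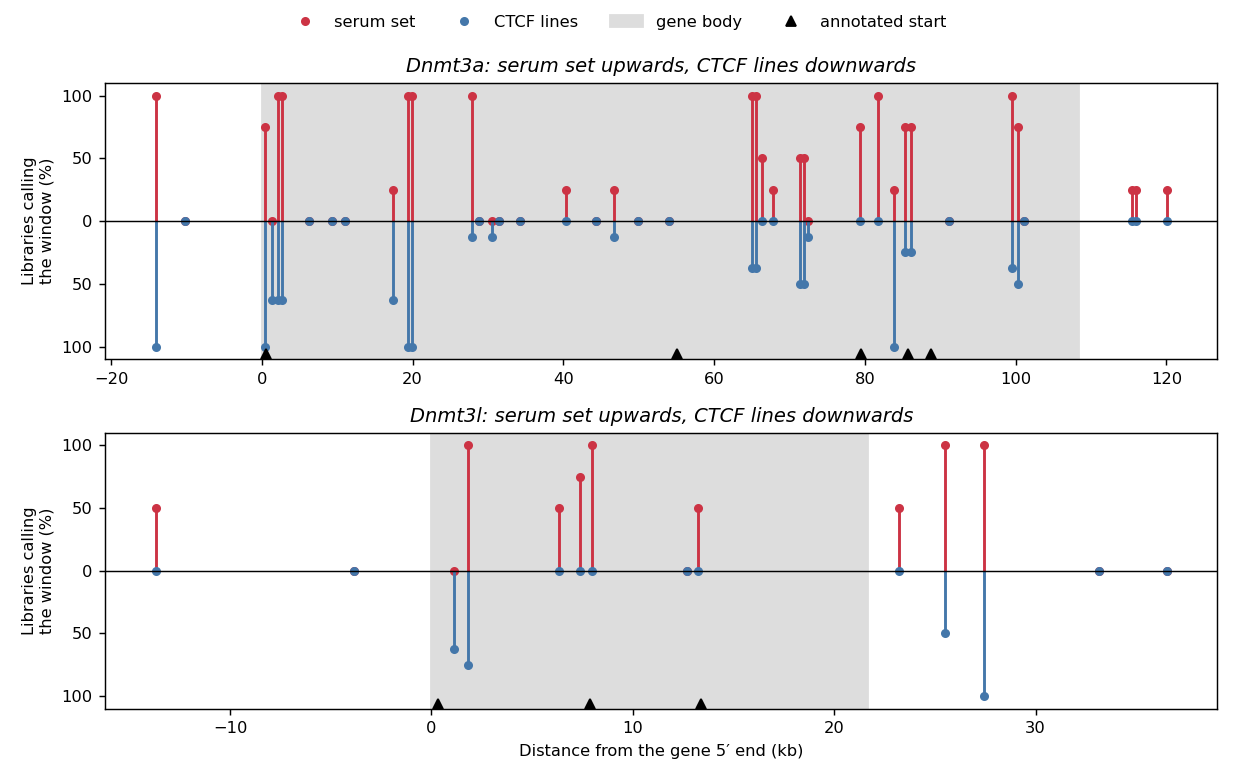
Share of libraries calling each site in equal-length lists, for the 4 serum libraries (upwards) and the 8 CTCF lines (downwards), by distance from the gene 5′ end in kb, for Dnmt3a (top) and Dnmt3l (bottom). Grey marks the gene body and triangles mark annotated start regions. At 7.995 kb the Dnmt3l site is called by all serum libraries and no CTCF line.

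Sites called by all 24 libraries numbered 6, which at 2.47% is near the 2.56% of all windows. Of these, 4 were intronic in Tet2, whose product, unlike TET1 and TET3, has no CXXC domain of its own, at 10.8, 11.6, 19.9 and 20.5 kb from its 5′ end, with mean percentiles of 86.8, 91.7, 88.5 and 91.0. The other two lay at starts of neighbouring genes, Ppan in the Dnmt1 locus and 1190007I07Rik in the Tdg locus. At the other end, 46 of the 243 sites (18.9%) were called by no equal-length list, against 22% of all windows. In Tet1 the strongest site away from starts was intronic, at chr10:62865192-62865692, with a mean percentile of 90.1 in serum and 61.4 in serum-free libraries and calls in 21 of 24 libraries. In Dnmt3b it lay 6294 bp before the start, at 78.5 and 25.7, in 18 libraries, and in the Dnmt3l locus 1854 bp from Icosl, at 62.6 and 5.47, in 8. For Dnmt1 it lay 2213 bp from S1pr2, at 63.9 and 65.5 in 22 libraries, for Uhrf1 in a Plin3 intron, at 24.6 and 48.3 in 19, and for Tdg in a Glt8d2 intron, at 35.6 and 39.0 in 18. Those of Dnmt3a and Tet3, sites 1 and 5, hold the CTCF motif and are described with it.

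Within the Chd4 set, called sites were fewer with both hairpins at 6 of the 9 loci, most at Dnmt3b, Uhrf1 and Tet1. CHD4 is the remodelling ATPase of the NuRD complex, and the lists cannot show whether the hairpins lowered it. Lists of this set were reduced to their shortest, 80619 peaks. Dnmt3b had 7 and 6 sites in the shluci libraries, 2 and 0 with shRNA1 and 1 and 1 with shRNA2. Uhrf1 had 9 and 10 against 2 and 4 with shRNA1 and 3 and 3 with shRNA2. Tet1 had 14 and 12 against 9 and 8 and then 5 and 5. At these 3 loci the hairpin libraries did not overlap the shluci libraries, and their mean was 15.4%, 31.6% and 51.9% of the shluci mean, against a median of 75% over all genes.

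Dnmt1, Dnmt3a and Tet2 were also lower in every hairpin library, at 73.7%, 78.3% and 80.0% of the shluci mean, close to the median of all genes. Of 19679 genes, 19.8% were lower in every hairpin library in the same way. That share was not matched for locus size. The 6 lower loci had shluci means of 6.5 to 17.5 sites, against a median of 3.5 over all genes. Dnmt3l, Tet3 and Tdg overlapped between groups. With 2 libraries against 4 the smallest exact two-sided p is 0.0667, so no gene can pass 0.05. The hairpin lists also called fewer windows in all (58386 to 62909 against 66304 and 69091). In these reduced lists their median peak lengths were also shorter, at 108 and 112 bp with shRNA1 and 102 and 108 bp with shRNA2 against 134 and 146 bp, and their peaks covered 9.60 to 11.0 Mb against 13.4 and 15.8 Mb. The part of these differences in the result was not tested.

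Of the 243 sites, 11 were called by both shluci libraries and by no hairpin library, and 0 showed the reverse; over all windows these shares were 2.83% and 1.19%, 4.02% together. Of those 11, 3 lay in the Tet1 locus, 2 each in those of Dnmt3b and Tet2, and 1 each in those of Dnmt1, Dnmt3a, Uhrf1 and Tet3. The strongest, at a mean percentile of 79.0 in shluci, was Dnmt3a site 32 at chr12:3889611-3890111, intronic and 1867 bp before the short-form start. Uhrf1 site 16, the intronic site without a serum call named above, followed at 71.4, and Tet3 site 17, at the start of 5430434F05Rik inside Tet3, at 68.4. Dnmt1 site 28, between genes and 1614 bp from S1pr2, stood at 64.2, Tet1 site 37 at the Tet1-209 start at 57.5, and Tet2 site 17, in a noncoding exon, at 56.2. At Dnmt3b the sites were its own start (36.5) and the intronic site 9 (15). In equal-length lists all but 1 of the 8 CTCF lines lacked Tet1 site 42 and all 8 lacked Dnmt3b site 9 and Tet1 site 24, while the other 8 of these sites were called by all 8. With shRNA1 alone 19 sites were lost and 3 gained, beside 4.82% and 3.72% of all windows (8.54% together), and with shRNA2 alone 23 and 3, beside 5.73% and 3.77% (9.5% together).

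**Figure D4:**
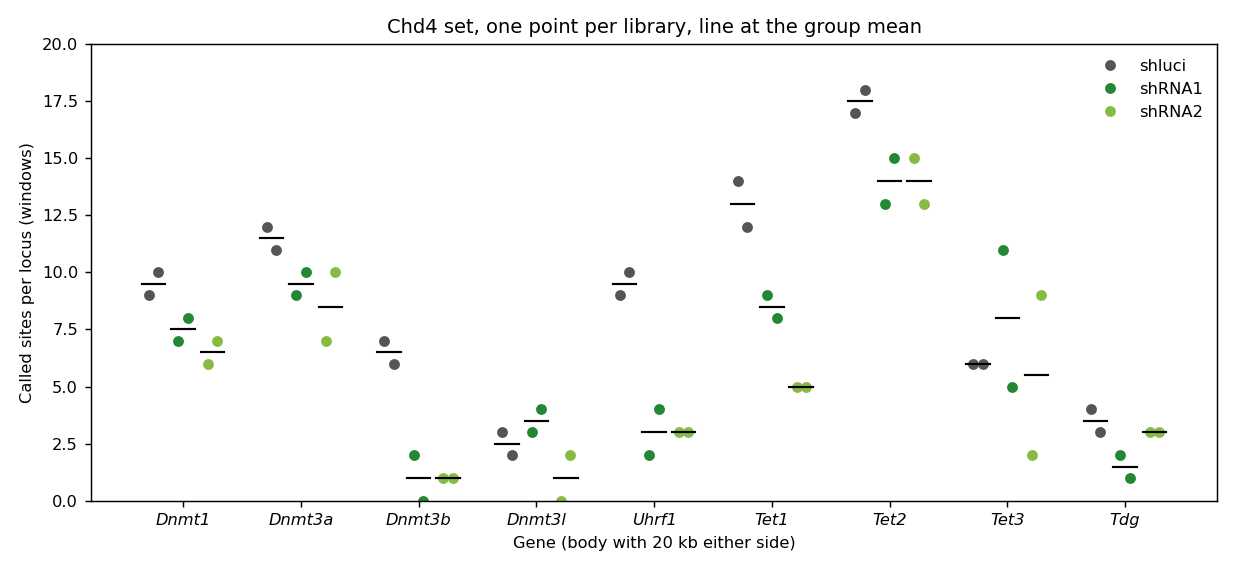
Called sites (windows) per locus in the Chd4 set, lists reduced to 80619 peaks, with 1 point per library and a line at each group's mean. The shluci libraries lie above all 4 hairpin libraries for Dnmt3b, Uhrf1 and Tet1, while Dnmt3l, Tet3 and Tdg overlap.

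In the Chd8 set, with lists of 135410 peaks, the 9 loci showed no direction in common. None of the 9 had all 4 hairpin libraries on 1 side of both shluci libraries; over all genes 3% were lower and 2.88% higher in this way. Of the 243 sites, 2 were lost and 2 gained with both hairpins, 1.65% in all against 1.56% of all windows (1.01% lost, 0.552% gained). With shRNA1 alone 7 sites were lost and 5 gained, beside 2.86% and 1.96% of all windows (4.82% together). With shRNA2 alone 3 were lost and 8 gained, beside 2.15% and 3.49% (5.64% together). Of the 8 gains, 3 were in Tet2 and 2 each in Dnmt3b and Tet1. The gained sites were Dnmt3b site 2, at the start of the neighbouring gene Commd7 (0 in shluci, 51.1 and 86.5 with the hairpins), and Tet1 site 32, in a coding exon (0, 20.6 and 39.2). The lost sites, Tet1 sites 10 and 23, stood at 33.3 and 13.5 in shluci. Dnmt1 had 15 and 18 sites in shluci and 12, 9, 17 and 15 with the hairpins, and Tet2 had 20 and 19 against 20, 21, 25 and 27.

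CTCF binds DNA through its zinc fingers at a long motif, and 16 of the 243 sites held it with at most 1 mismatch on either strand (6.58%), against 5.57% of all windows; 6 held it without mismatch (2.47% against 1.34%). The motif, known as the CTCF consensus, was searched within 250 bp of the window centre. Of the 9 motif sites called by both control-line libraries without IAA, 3 were called by neither with IAA, and of 142 sites without the motif 4 were. These are 33.3% and 2.82%, and over all windows 34.8% and 4.75%. In serum 1 of 6 motif sites was lost (16.7% against 40.8% of all motif windows) and 1 of 67 sites without the motif (1.49% against 5.56%). Sequences are shown for the 4 motif sites lost in either medium, and beside them for 4 of the 5 motif sites called by all control-line libraries with and without IAA; the fifth, Dnmt3l site 4, is not shown because its stretch overlaps an annotated exon. Each is 44 bases on the strand of the motif, with the motif in capitals. Dnmt3b site 13, Dnmt3l site 1 and Uhrf1 site 4 match without mismatch, and the others shown hold 1 mismatch. A match to the letters does not show that CTCF was bound.
Dnmt3b site 11, lost, chr2:153668896-153668939, plus strand: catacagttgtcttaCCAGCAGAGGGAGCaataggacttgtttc
Dnmt3b site 13, lost, chr2:153694649-153694692, minus strand: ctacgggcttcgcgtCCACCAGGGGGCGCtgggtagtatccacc
Tdg site 9, lost, chr10:82666627-82666670, plus strand: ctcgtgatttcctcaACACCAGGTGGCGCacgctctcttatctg
Dnmt3l site 1, lost in serum, chr10:78028268-78028311, plus strand: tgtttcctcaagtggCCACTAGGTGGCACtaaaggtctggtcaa
Dnmt3a site 1, kept, chr12:3791978-3792021, minus strand: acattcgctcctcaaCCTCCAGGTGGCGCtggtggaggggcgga
Dnmt3b site 8, kept in serum-free medium, chr2:153650299-153650342, plus strand: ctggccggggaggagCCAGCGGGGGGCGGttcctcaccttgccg
Uhrf1 site 4, kept, chr17:56291362-56291405, plus strand: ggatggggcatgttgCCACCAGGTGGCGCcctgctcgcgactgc
Tet1 site 3, kept, chr10:62792528-62792571, minus strand: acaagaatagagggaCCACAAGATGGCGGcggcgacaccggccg
Dnmt3b site 11 is intronic, and Dnmt3b site 13 is intergenic, 1945 bp from the start of Dnmt3c, the rodent copy of Dnmt3b active in male germ cells. Their mean percentiles were 38.5 and 35.4 without IAA and 0 with it. Tdg site 9 lies in an intron of the neighbouring Glt8d2 and went from 57.3 to 0. In serum these 3 sites were called by 1 of 2 libraries at 0 h and 0 of 2 at 12 h. Dnmt3l site 1, 13.7 kb upstream of the gene, was called by both serum libraries at 0 h (mean 42.0) and by neither at 12 h, and by 1 and then 0 control-line libraries in serum-free medium.

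Of the kept sites, Dnmt3a site 1, 14.1 kb upstream of the gene, stood at 92.9 without and 92.9 with IAA in the control line and at 77.8 and 74.1 in serum. Uhrf1 site 4, near a start of Plin3, went from 93.1 to 88.3 and from 79.6 to 61.3, and Tet1 site 3, near a start of Ccar1, from 96.4 to 97.0 and from 95.7 to 90.1. Dnmt3b site 8, at the Dnmt3b start, stood at 76.3 and 75.4 in the control line, and in serum it went from 31.8 to 2.74, with 1 of 2 libraries calling it at 12 h. Dnmt3l site 4, near a start of Aire, was kept in both media. Tet3 site 5, in an intron of Bola3, was called by 2 and then 1 control-line libraries. The lost sites were thus weaker before IAA than the kept ones in the control line, at 35.4 to 57.3 against 68.8 to 96.4. All kept sites but Dnmt3a site 1 also lay within 1 kb of a start, while the lost ones did not. Strength and position cannot be told apart here, and neither was tested.

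**Figure D5:**
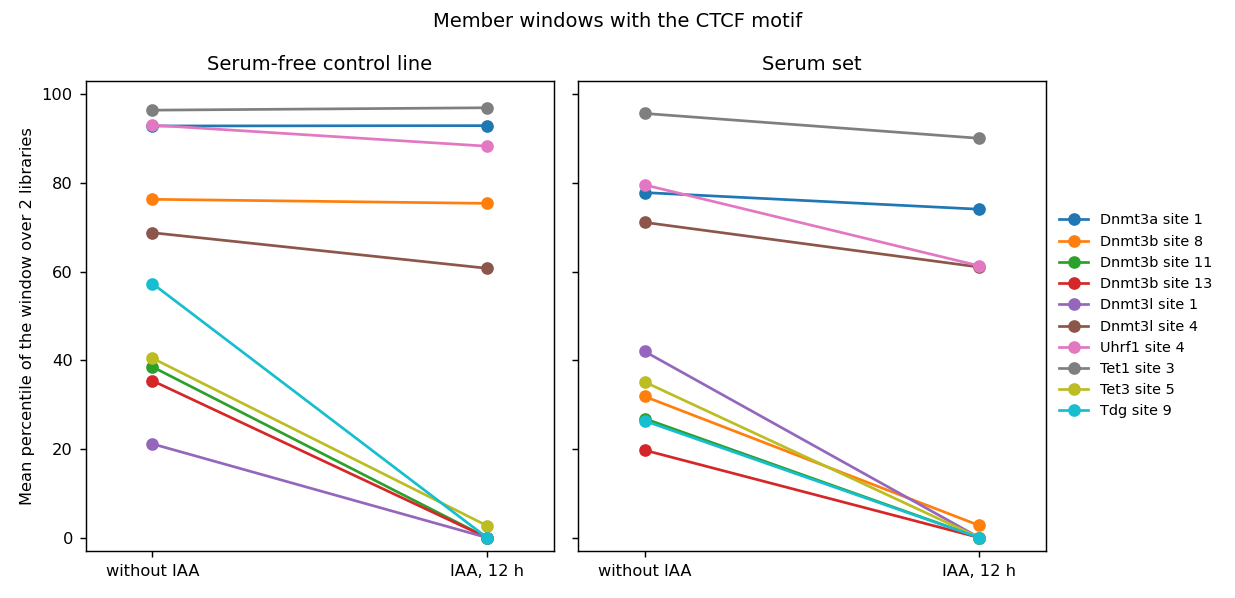
Mean percentile over 2 libraries, with 0 for a library without a peak, of the 10 sites with the CTCF motif called by both untreated libraries of either medium. Left, the control line in serum-free medium in lists of 120137 peaks; right, the serum set in lists of 59786. Tdg site 9 falls from 57.3 to 0 on the left, and Tet1 site 3 stays above 90.

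Counting all sites, IAA changed few of them. In serum-free medium 7 of 243 were lost and 7 gained, 5.76% against 6.44% of all windows (3.52% lost, 2.91% gained). In serum 2 were lost and 7 gained, 3.70% against 4.27% (2.04% lost, 2.24% gained). With 2 libraries against 2 the smallest exact two-sided p is 0.333, so these are descriptions. Besides the motif sites, the losses in serum-free medium were intronic in Dnmt3a (site 29, 44) and Tet1 (site 21, 34.3), in the Kdm4b intron beyond Uhrf1 (site 18, 35.9) and 104.7 kb from the Tet1 5′ end (site 9, 45.2). The strongest gains were Tet3 site 30 upstream of the gene (37.7) and Tet3 site 8 in a UTR exon (30.0), followed by Dnmt1 site 5 between genes (27.5) and the intronic Tet3 site 10 (26.6). The Tet3 locus went from 21 and 24 called sites to 26 and 27, and Dnmt3b from 11 and 11 to 9 and 9, where 12% and 11.5% of all genes were higher or lower in both libraries.

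In serum the gains included 3 intronic sites of Dnmt3a, of which sites 27 and 28 lie within 1 peak (49.0), and the intronic Tet2 site 19, at 86.6. The Dnmt3a locus went from 15 and 15 to 19 and 20 called sites, Tet1 from 19 and 18 to 20 and 22, and Dnmt1 from 11 and 12 to 14 and 14, while 11.7% of all genes were higher and 9.45% lower in both libraries. The Tet3-203 start held 1 of the 2 losses, at site 27, from 44.9 to 0, although a peak within 1 kb of this start remained in both libraries at 12 h. One site was gained in both media, Dnmt1 site 6 at chr9:20893686-20894186, which is intergenic beyond the 3′ end of Dnmt1 and went from 0 to 23.2 in the control line and from 0 to 15 in serum.

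Under IAA, the overexpressing lines were set beside the same 2 libraries of the control line, so these comparisons share them with each other and with the effect of IAA. In the wild-type CTCF line 8 sites were lost and 2 gained, 4.12% against 4.93% of all windows (2.55% lost, 2.37% gained). In the mutated line 3 were lost and 3 gained, 2.47% against 4.17% (1.92% lost, 2.25% gained). Tet3 site 8 stood at 0 in the control line without IAA, 30.0 with IAA, 0 in the wild-type line and 12.0 in the mutated line. Uhrf1 site 9, near a start of Arrdc5, stood at 0, 11.1, 0 and 7.34 in the same order, and Dnmt3a site 26 at 0, 11.9, 0 and 0. Both gains in the wild-type line were in the Dnmt3l locus, the intronic site 5 (28.9) and site 14 in a UTR exon of Icosl (30.6). The mutated line gained Dnmt3b sites 4 and 9, at 57.2 and 31.7, which were also called by all 4 serum libraries, and Tet1 site 9, at 25.1 against 45.2 in the control line without IAA. The Tet3 locus had 26 and 27 called sites in the control line with IAA, 23 and 22 in the wild-type line and 23 and 26 in the mutated line. Against the control line, Tet1, Tet3 and Tdg were lower and Dnmt3l was higher in both wild-type libraries, as 13.6% and 7.27% of all genes were, and Dnmt3b was higher in both mutated libraries, as 9.74% were (8.38% lower). Set directly against the mutated line, the wild-type line lacked Dnmt3b sites 4 and 9 and Dnmt3a site 18 and had Dnmt3l sites 5 and 14, 3 lost and 2 gained beside 2.02% and 1.41% of all windows (3.44% together).

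Of 21 other genes of the pathway, among them regulators such as Dppa3 and Prdm14 and repair genes such as Apex1 and Smug1, 3 had more called sites in serum and 0 had fewer. These were Ehmt2, a histone methyltransferase gene (7.25 and 4.00 sites, adjusted p = 0.0229), Zbtb33, which encodes a methyl-CpG-binding factor (3.75 and 2.05, adjusted p = 0.0221), and Cxxc4, which encodes a CXXC protein that binds TET2 (4.75 and 2.10, adjusted p = 0.0391), by exact permutation. The share of 14.3% lies near the 11.7% of all genes, and the median difference of 0.90 sites near the 0.70 of all genes. By the rank of the best start peak 1 of 20 tested genes differed, Cxxc4 (exact permutation, adjusted p = 0.0140).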

How the data were processed

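ATAC-seq peak lists of 24 libraries were used, 1 list per library and not pooled. The submitters' processing notes name Trim Galore, Bowtie2, MACS2, deepTools and the build mm10, without roles or versions. Per the file headers and layout, the deposited lists give each peak a score, a fold enrichment ratio over background, and −log10 p and −log10 q values made by the authors' peak caller; these are the authors' own values and were used only to rank or filter peaks within a list. Read depth and counts are not given in the lists, so no interval that needs them was computed.

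Windows of 501 bp were laid around summits, and those called by at least 2 libraries were kept (233706 of 405819). A window was called by 1 bp of overlap. Lists were reduced by the authors' p to 59786 peaks for the comparison of media, and to the shortest list of the set (120137, 80619, 135410 or 59786) within sets. A site was lost when both reference libraries and no test library called it, and gained in the reverse case. Media were compared by an exact two-sided permutation of 4 against 20 libraries over all protein-coding genes with Benjamini-Hochberg adjustment and a threshold of 0.05, and the procedure was tested on simulated data. Smaller comparisons are descriptions beside the share of all windows or genes, and the shares of genes were not matched for locus size. The members, gene lists and tests were chosen with earlier results of these data known. All 9 genes are named, with the strongest start and non-start site of each, up to 6 changed sites per comparison and the motif sites; further sites were named after their values were seen. Alternatives were list length, a −log10 q of at least 10, overlap, locus size, start distance, the unit, the replicate block and leaving out libraries. Those against the CTCF lines alone, with scaled counts, with basic starts, by start region, by summit and without replicate 1 of 2 Chd4 groups were chosen after seeing the data. Libraries of a group shared 34 to 298 identical peak intervals, and all were kept. Python 3.11.15, numpy 2.4.6, pandas 2.3.3 and scipy 1.17.1 were used.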

Additional observations from a re-analysis of the deposited data

How the results depend on the processing

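Of the 9 genes, 4 differed between media in called sites per locus and 1 in start rank with lists of equal length. With lists at their deposited length the counts were 0 and 0 (5.19% and 3.33% of all genes), at 50% of the shortest 2 and 0 (8.16% and 9.72%), with a −log10 q of at least 10 again 0 and 0 (0% and 0.267%), and with group means as units 0 and 0 (0% and 0%, smallest p 0.0152). Group means cannot decide, because a gene could pass adjustment only if a large share of all genes reached that smallest p. In the gene body alone and with 50 kb either side, 3 genes differed in sites, as did 7.82% and 12.3% of all genes. Against the CTCF lines alone 6 genes differed in sites and 4 in start rank, as did 26% and 38.9% of all genes. Leaving out 1 library in turn gave 3 to 4 genes in sites and 1 to 1 in start rank, beside 6.83% to 13.0% and 5.69% to 9.14% of all genes. With the replicate number as a replicate block the counts were 4 and 1 (11.0% and 8.37%), and no call changed. Correlations of deviations between same-numbered libraries were −0.0762 to 0.104, so the numbers do not pair the libraries. Replicate numbers were taken from the labels; peak names inside both serum 12 h lists carry other numbers, so the block is uncertain for these libraries.

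Differences in called sites, serum minus serum-free, reversed in these cases. At deposited length they were −2.95 for Dnmt1, −4.20 for Tet1, −7.25 for Tet3 and −0.15 for Tdg. With a −log10 q of at least 10 they were −2.80 for Dnmt1, −4.60 for Dnmt3a, −2.40 for Tet1, −2.05 for Tet3 and −0.70 for Tdg. With at least 50% of a window covered they were 1.3 for Uhrf1 and 3.00 for Tet2. Against the CTCF lines alone they were −0.625 for Dnmt1 and −2.62 for Tet3. For Tet3 they were also −0.35 with peaks counted, −0.478 with scaled counts and −0.25 without replicate 1 of both Chd4 groups. Leaving out 1 library gave −0.533 to 0.133 for Uhrf1 and −0.433 to 0.618 for Tet3.

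Differences in start percentile reversed at deposited length for Dnmt3a (−1.86) and Dnmt3b (−10.8), and at 50% of the shortest for Dnmt3b (−0.782). With a −log10 q of at least 10 they were −23.0 for Dnmt3a, −23.2 for Dnmt3b and −2.93 for Dnmt3l. Against the CTCF lines alone they were −4.01 for Dnmt3a, −7.37 for Dnmt3b, −1.43 for Uhrf1 and −6.20 for Tet2. With basic starts Tet1 was at −0.412, and leaving out 1 library gave −4.76 to 2.55 for Tet3. The cause of these reversals was not tested.

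Counts of changed sites also moved; each is followed by its percent of the sites and that of all windows. At 50% of the shortest, they were 7 with IAA in serum-free medium (2.88% and 3.74%), 1 with IAA in serum (0.412% and 2.21%), 6 in the wild-type line (2.47% and 2.56%), 7 for Chd4 (2.88% and 2.95%), 1 for Chd8 (0.412% and 0.815%) and 1 between media (0.412% and 0.414%). With a −log10 q of at least 10, they were 6, 5 and 5 for the first 3 (2.47% and 4.61%, 2.06% and 2.43%, 2.06% and 3.31%) and 0 between media (0% and 0.0817%). At deposited length they were 14 with IAA in serum (5.76% and 5.17%) and 0 between media (0% and 0.426%). In the gene body alone, with 155 sites, they were 6 with IAA in serum-free medium (3.87% and 6.44%) and 6 in the wild-type line (3.87% and 4.93%). With 50 kb either side, and 346 sites, they were 15 with IAA in serum (4.34% and 4.27%), 17 in the wild-type line (4.91% and 4.93%), 13 in the mutated line (3.76% and 4.17%) and 17 for Chd4 (4.91% and 4.02%). By summit the mutated line had 11 (4.53% and 4.31%), and with 50% of a window covered Chd8 had 1 (0.412% and 0.163%). Leaving out a library loosens the all-or-none rule, so these counts can only stay or rise, for all windows as well. It gave 22 to 34 with IAA in serum-free medium, 18 to 27 in serum, 18 to 27 in the wild-type line, 17 to 24 in the mutated line, 12 to 24 for Chd4, 6 to 18 for Chd8 and 2 to 7 between media. The shares of all windows were then 11.4% to 13.6%, 8.24% to 9.39%, 9.57% to 12.0%, 9.28% to 10.4%, 5.35% to 8.37%, 2.34% to 6.92% and 0.808% to 1.13% in that order. The share of sites with the CTCF motif was 2.47% without mismatch, against 1.34% of all windows, and 2.88% within 50 bp of the centre, against 1.45%. The loss of motif sites with IAA moved too. Within 50 bp of the centre, 3 of 4 were lost in serum-free medium (75% against 40.8% of all such windows) and 1 of 2 in serum (50% against 44.8%). Without mismatch, it was 1 of 4 (25% against 44.3%) and 1 of 3 (33.3% against 50.9%).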
